A study of Mus musculus with 32 samples.

Results

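The genes described here are 2 neurotrophins and 4 of their receptors: Bdnf, Ntf3, Ntrk2 (which encodes TrkB), Ntrk3 (TrkC), Ngfr (the p75 receptor) and Sort1 (sortilin). They were chosen by symbol from the total RNA count table, in which all 6 of the 6 were present among 51267 features. All 6 passed the filter on low counts that left 17173 features for testing. The RNA came from primary hippocampal neurons of newborn (P0) mice, grown for 16 days in vitro and exposed for 30 min to DMSO as the vehicle, to 30 µM DHPG or to 50 µM forskolin (FSK). DHPG activates metabotropic glutamate receptors of group I, and forskolin activates adenylyl cyclase and so raises cAMP. There were 4 DMSO, 6 DHPG and 6 FSK total RNA libraries, and 16 further samples of the series measured miRNA and were not used. The labels give no strain, sex or genetic change, and do not say whether the libraries of a group came from separate cultures, so each p-value measures the spread between libraries. The series asks which RNAs depend on cAMP and on the group I receptors.

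Neurotrophins are secreted growth factors made as precursors, the proneurotrophins, which are cut to the mature ligand by proprotein convertases inside the cell or by extracellular proteases such as plasmin. Mature BDNF binds TrkB and mature NT-3, the product of Ntf3, binds TrkC. These receptor tyrosine kinases signal through Shc, Frs2 and phospholipase C gamma to support survival, dendrite growth and synaptic plasticity. Proneurotrophins bind p75 together with sortilin or a sortilin relative, a complex linked to cell death and to growth cone and synapse retraction. In hippocampal neurons Bdnf is a classic activity-dependent gene, with several promoters that join separate first exons to 1 shared coding exon. Ntrk2 makes a full-length kinase receptor and a truncated form that lacks the kinase, and astrocytes mainly make the truncated one. The counts are per gene, so neither the Bdnf promoters nor the forms of TrkB were separated.

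The libraries fell into sets of different depth that were unevenly spread over the treatments. Counts ran from 38409918 to 59958600 in the 7 deep libraries, which were DMSO 2, 3 and 4, DHPG 6, and FSK 4, 5 and 6, and mitochondrial rRNA took 10.8% to 27.7% of them. The 9 shallow libraries held 20677117 to 24892959 counts, with 1.47% to 2.92% of them from mitochondrial rRNA. Within FSK, libraries 4 and 5 stood apart. The summed level of 10 microglial markers was 152 and 279 CPM in them (CPM is the count scaled to an equal library total), against 5.72 to 30.9 CPM in the other libraries. Neuronal markers were present throughout: 10 excitatory markers summed to 1113 to 2039 CPM and 9 inhibitory markers to 281 to 655 CPM. Both sums were lowest in FSK 4 and FSK 5, at 1113 and 1231 CPM for excitatory and 338 and 281 CPM for inhibitory markers. These 2 libraries also had the highest sums for choroid plexus and ependyma (484 and 422 CPM) and for endothelium (96.1 and 31.6 CPM). Astrocyte markers were present too, since 9 of them summed to 3348 to 7559 CPM, so cultures labelled as neurons also held astrocyte RNA.

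Response to the drugs was first read from 6 genes known to be induced by neuronal stimulation. In FSK against DMSO, 5 of the 6 rose: Fosb from a mean of 5.34 CPM to 85.8 CPM, and on the log2 scale Fos by 2.55, Nr4a1 by 2.36, Arc by 2.18 and Egr2 by 1.81, at adjusted p of 0.00067 to 0.021 in edgeR's quasi-likelihood test with Benjamini-Hochberg adjustment. The sixth, Npas4, had a log2 fold change of 1.82 with an adjusted p of 0.088 in edgeR, and its level in all 6 FSK libraries exceeded every DMSO library. In DHPG against DMSO none of the 6 passed in edgeR, although 5 had an unadjusted p under 0.05, beside 12.4% of all features. DESeq2 called 3 (Arc, Egr2 and Fosb), beside 0.0255% of its features. DMSO 2 was the highest DMSO library for all 6 genes. Its Npas4 was 91.6 CPM against 7.29 to 22.4 CPM in the other DMSO libraries, and its Arc 80.0 CPM against 21.4 to 38.4 CPM. The part of this library in the missing calls was not tested. Arc had a log2 fold change of 1.75 in DHPG against DMSO (edgeR adjusted p = 0.26), with all 6 DHPG libraries above every DMSO library. Without FSK 4 and FSK 5, 3 of the 6 still passed in FSK against DMSO, beside 0.227% of all features.

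Across all features the 3 comparisons differed widely in how many genes they called. In FSK against DMSO edgeR called 139 of 17173 features, or 0.809%, 60 of them higher and 79 lower. Scaling by library totals alone gave 49 higher and 13 lower. In DHPG against DMSO it called 1 feature, or 0.00582%. In FSK against DHPG it called 5283 features, or 30.8%, of which 2803 were higher and 2480 lower in FSK, and library totals alone gave 1760 higher and 750 lower. These last calls depended on FSK 4 and FSK 5: without both, 3 features were called, and 1551 were called when a term for the library set was added as well.

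Bdnf lies on chromosome 2 (chr2:109674700-109727043 in GRCm38.p6, RefSeq), on the plus strand, and RefSeq gives 7 start sites for it. The textbook route from cAMP to Bdnf runs through CREB at the cAMP response element of promoter IV. The members' promoters were therefore searched on both strands for the full element TGACGTCA and for its core site, read as TGACG or CGTCA. The core site is contained in the full element, so a full match would count under both. Each window spanned 250 bases before to 50 bases after a RefSeq start site in GRCm38.p6. The full element was in 1.79% of all 32851 windows and the core site in 20.8%. Windows were found for 4 of the 6 members, 11 in all, and the full element was in none of them. A core site was in 1 of them, the third Bdnf window, whose start site is at position 109692436 and which belongs to exon IV. It is printed beside 2 genes that rose under FSK in these libraries, Fos on chromosome 12 and Nr4a1 on chromosome 15. Each stretch is on the plus strand, ends before or at the base ahead of the start site, and has its core sites in capitals, with the sites nearest to the start shown.
Bdnf, chr2:109692356-109692435: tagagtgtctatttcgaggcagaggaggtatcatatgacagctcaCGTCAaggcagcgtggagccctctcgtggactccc
Fos, chr12:85473779-85473873: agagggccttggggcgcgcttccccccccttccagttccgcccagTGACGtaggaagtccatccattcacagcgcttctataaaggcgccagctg
Nr4a1, chr15:101266761-101266845: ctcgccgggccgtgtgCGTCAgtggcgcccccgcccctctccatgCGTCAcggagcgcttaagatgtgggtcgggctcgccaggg
The core sites printed start 35 bases before the start site in Bdnf, 66 bases before it in Fos, and 69 and 40 bases before it in Nr4a1. The Fos window holds 1 more, 129 bases before the start site, and the Nr4a1 window 2 more, 233 and 213 bases before it, which are not printed. The other response genes were searched as well and are not printed. The Fosb window holds 1 core site and the Npas4 window 2. Egr2 windows 3, 4 and 5 hold 2 each and its windows 1 and 2 hold 0, and no window was found for Arc. The matches describe letters only, and whether a factor was bound there was not measured.

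Bdnf itself did not pass edgeR's test in any of the 3 comparisons. Its level was 41.7, 34.5, 28.5 and 41.9 CPM in the 4 DMSO libraries. In DHPG the lowest, median and highest levels were 26.5, 33.2 and 41.2 CPM. In FSK they were 27.5, 41.2 and 50.0 CPM. The 3 groups overlapped, as they did for all 6 members in each comparison. Over all features, the groups did not overlap for 7.98% in FSK against DMSO, 1.31% in DHPG against DMSO and 7.24% in FSK against DHPG. For Bdnf 3 of the 6 FSK libraries lay above every DMSO library and 1 lay below them all. Each library held 637 to 2057 Bdnf counts, so counting error was small beside this spread. FSK 4 and FSK 5, which stood apart by their microglial, neuronal and other cell markers, were the lowest and the highest of the FSK libraries for Bdnf.

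**Figure D1:**
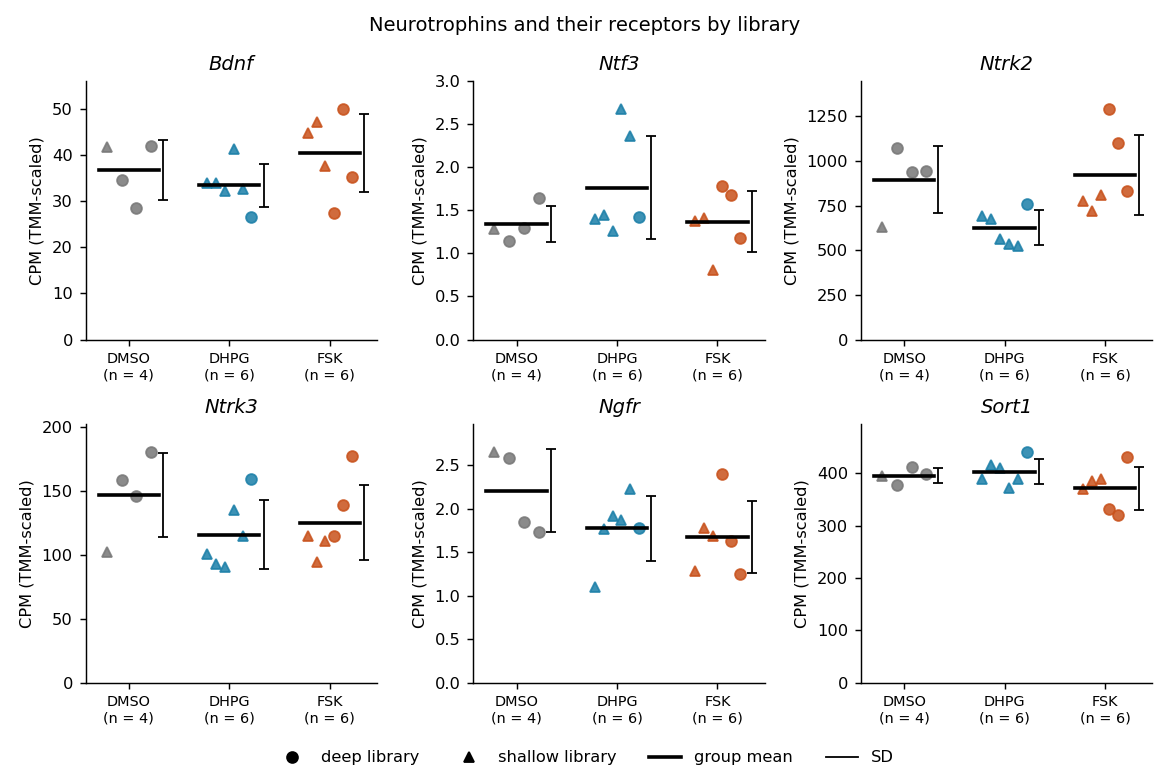
Level of each of the 6 genes in every total RNA library, in CPM scaled by TMM factors on a linear axis from 0, by treatment. Circles are deep and triangles shallow libraries, the thick line is the group mean and the thin bar beside it the SD. The 3 groups overlap for every gene, and 5 of the 6 FSK libraries lie above every DHPG library for Ntrk2.

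The mean Bdnf level was 36.7 ± 6.44 CPM in DMSO (SD, n = 4), 33.4 ± 4.71 CPM in DHPG (n = 6) and 40.3 ± 8.46 CPM in FSK (n = 6). FSK was 1.10-fold DMSO, with a 95% interval of 0.86 to 1.40 (edgeR adjusted p = 0.67). The interval includes no change as well as a rise or a fall at 30 min. It does not give the smallest change that would have been called. None of the 6 members was called in this comparison, in which 0.809% of all features were. None had an unadjusted p under 0.05 in edgeR, and DESeq2 called none of the 6 either. DHPG against DMSO gave a log2 fold change of −0.14 ± 0.16 (SE; edgeR adjusted p = 0.68). FSK against DHPG gave 0.27 ± 0.15, or 1.21-fold with an interval of 0.97 to 1.50 (edgeR adjusted p = 0.16), and 3 of the 6 FSK libraries lay above every DHPG library. DESeq2 called 6.88% of the features to which it gave an adjusted p in FSK against DMSO. With limma-voom and sample weights Bdnf did pass, at 0.40 in FSK against DMSO (adjusted p = 0.014), where that fit called 35.2% of all features, and at 0.34 in FSK against DHPG (adjusted p = 0.037), where it called 33.7%. In the authors' deposited table the log2 fold change of Bdnf under FSK was 0.12, with an adjusted p of 0.78.

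Ntf3 and Ntf5 were near the limit of what these libraries measure. Ntf3 lies at chr6:126101412-126166772. It had 22 to 100 counts per library and levels of 1.28, 1.14, 1.30 and 1.64 CPM in DMSO. The lowest, median and highest levels were 1.26, 1.43 and 2.68 CPM in DHPG, and 0.807, 1.39 and 1.78 CPM in FSK. DHPG 4 and DHPG 5 were the highest of the 16 libraries, and the other DHPG libraries lay within the DMSO range. The log2 fold change was 0.39 ± 0.27 in DHPG against DMSO, 0.03 ± 0.27 in FSK against DMSO and −0.36 ± 0.24 in FSK against DHPG, with edgeR adjusted p of 0.48, 0.96 and 0.26. The 95% intervals of all 3 log2 fold changes include 0, and they do not give the smallest change that would have been called. Ntf5, which encodes NT-4, had 0 to 11.2 counts per library and did not pass the filter.

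Ntrk2 (chr13:58806472-59133970) was the only one of the 6 members to pass in edgeR in any of the 3 comparisons. Its level in DMSO was 628, 1070.4, 937 and 944 CPM. In DHPG the lowest, median and highest levels were 521, 621 and 761 CPM, and in FSK 722, 819.9 and 1293 CPM. The DHPG libraries were low and the FSK libraries high: 5 of the 6 FSK libraries exceeded every DHPG library, and FSK 2 fell just under DHPG 6. DMSO 1, the sole shallow DMSO library, lay inside the DHPG range, and the 3 deep DMSO libraries lay above it.

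In FSK against DHPG, Ntrk2 was 1.47-fold higher in FSK, with a 95% interval of 1.16 to 1.88 and a log2 difference of 0.56 ± 0.16 (edgeR adjusted p = 0.024). It was 1 of 6 members called where 30.8% of all features were (16.3% higher and 14.4% lower), a share near that background. Group means were 921 ± 224 CPM in FSK and 625 ± 97.6 CPM in DHPG (SD, n = 6 each). Against DMSO, whose mean was 895 ± 188 CPM (n = 4), neither drug gave a call. The FSK difference was 0.04 ± 0.18 (edgeR adjusted p = 0.92), and the DHPG difference was −0.52 ± 0.18, with an unadjusted p of 0.011 and an edgeR adjusted p of 0.40. None of the 6 members was called in DHPG against DMSO, where 0.00582% of features were. DESeq2 called none there either, beside 0.0255% of its features, and limma-voom with sample weights, which called 34.7% of all features, called Ntrk2 (−0.63) and Ntrk3 (−0.49). The authors' deposited table lists Ntrk2 under DHPG at −0.51 with an adjusted p of 0.079.

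**Figure D2:**
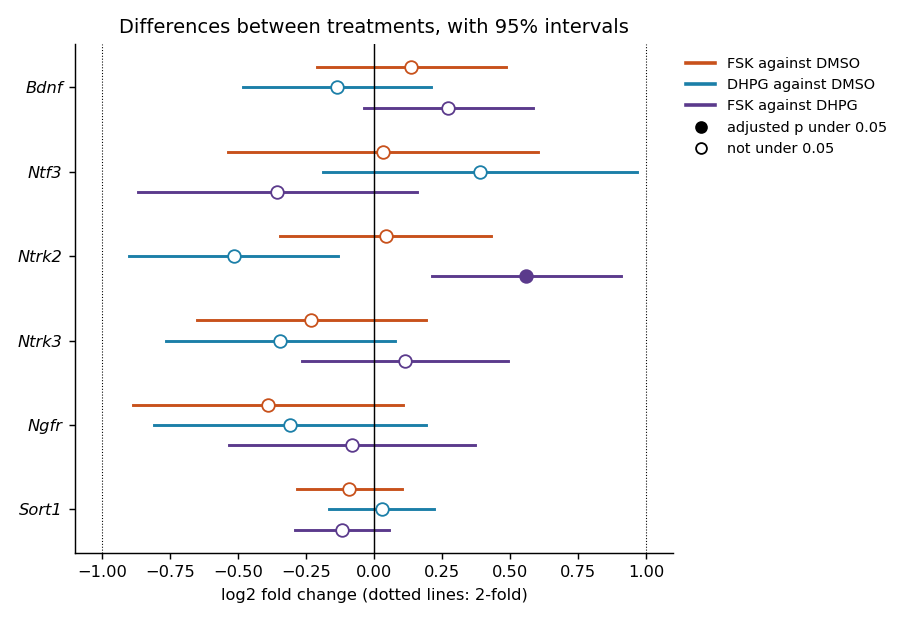
Log2 fold change of each gene in the 3 comparisons, with 95% intervals from the edgeR fit; filled points have an adjusted p under 0.05 and dotted lines mark a change by a log2 value of 1. The single filled point is Ntrk2 in FSK against DHPG at 0.56, and no interval reaches the dotted lines.

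Ntrk2 also differed between the library sets, which differ in depth, mitochondrial rRNA and several cell marker sums, so those cannot be told apart. Astrocyte sums were at least 6106 CPM in deep libraries (DHPG 6) and at most 5540 CPM in shallow ones (FSK 1). Sums for choroid plexus and ependyma were at least 133 CPM (DHPG 6) and at most 106 CPM (DMSO 1). Endothelial sums were also higher in every deep library than in any shallow one, while microglial and excitatory neuron sums overlapped. Ntrk2 was higher in deep than in shallow libraries by 0.49 ± 0.11 on the log2 scale with treatment in the fit (edgeR adjusted p = 0.0033). In the same fit 5924 of the 17173 features, or 34.5%, differed between the sets. With a term for the set, the FSK against DHPG difference in Ntrk2 was 0.38 ± 0.12 and remained called (edgeR adjusted p = 0.032), in a fit that called 23.3% of all features in that comparison. It was 0.36 in the shallow libraries alone (adjusted p = 0.096) and 0.47 in the deep ones, where DHPG has 1 library (adjusted p = 0.34). Without FSK 4 and FSK 5 it was 0.33 (adjusted p = 0.15), and with the set term as well 0.31 (adjusted p = 0.066). The call was also lost without FSK 4 alone (0.44, adjusted p = 0.056), FSK 5 alone (0.50, 0.059), DHPG 3 (0.53, 0.057) or DHPG 5 (0.51, 0.056). In DHPG against DMSO, the set term brought the difference from −0.52 to −0.22.

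Several lists of cell markers also varied with Ntrk2, not all of them in both library sets. The 9 astrocyte markers summed to 3348 to 6106 CPM in DHPG, 4142 to 6917 in DMSO and 5045 to 7559 in FSK. None of them was at 0 in all libraries of a group. In FSK against DHPG 4 of the 9 were called higher and none lower: Aqp4 at 1.97, Gfap at 1.05, Gja1 at 1.01 and Sox9 at 0.99. The median was 0.35 over the list and 0.03 over all features. That comparison called 30.8% of all features, and 16.3% of all features were called higher, which is the background of the marker calls given here. Within the 9 shallow libraries the log2 level of Ntrk2 followed the log2 marker sum with a Pearson r of 0.97 and a Spearman coefficient of 0.98 (exact permutation p = 3.3e-05 and 5.0e-05, adjusted over 120 relations 0.0040 and 0.0060). It was 0.96 without the 2 libraries farthest from the median sum. Within the 7 deep libraries r was 0.72 and the Spearman coefficient 0.86 (exact permutation p = 0.065 and 0.024, adjusted 0.20 and 0.15), and r was 0.70 without the 2 farthest. In the deep set the relations of Ntrk2 that passed were those with 2 other lists, the 6 markers of choroid plexus and ependyma at a Pearson r of 0.96 (exact permutation p = 0.00079, adjusted 0.029) and the 6 of endothelium at 0.95 (exact permutation p = 0.00040, adjusted 0.024), each with a Spearman coefficient of 0.96 (adjusted 0.067). Without the 2 farthest libraries these Pearson values were 0.89 and 0.94. In the shallow set they were −0.41 for choroid plexus and ependyma and 0.81 for endothelium (exact permutation p = 0.27 and 0.0079, adjusted 0.44 and 0.063). Other lists had an r of like size with Ntrk2. In the deep and shallow sets it was 0.91 and −0.54 for Schwann and olfactory ensheathing markers. It was −0.82 and −0.57 for inhibitory and −0.77 and −0.83 for excitatory neuron markers. None of these passed after adjustment, and the relation was not particular to any 1 list. Choroid plexus and ependyma markers summed to 40.9 to 133 CPM in DHPG, 106 to 373 in DMSO and 42.5 to 484 in FSK, and 3 of the 6 were called higher in FSK against DHPG with a list median of 1.66. Endothelial markers summed to 2.95 to 9.33 CPM in DHPG, 4.82 to 24.8 in DMSO and 4.52 to 96.1 in FSK; 1 of the 4 tested was called higher there (median 1.33), and Cldn5 was at 0 in all DMSO and DHPG libraries. With the library-set term (23.3% of all features called), 3 astrocyte markers were called higher and 1 lower. In that fit 1 marker of choroid plexus and ependyma was called higher and no endothelial one was called. Without FSK 4 and FSK 5 none of these 3 lists had a call, beside 0.0179% of all features. The sets mix treatments, and all values of a library share its depth and scaling. In bulk RNA, fewer cells of a type and less RNA per cell cannot be told apart. The part of RNA from any of these cell types in the Ntrk2 difference was not tested.

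**Figure D3:**
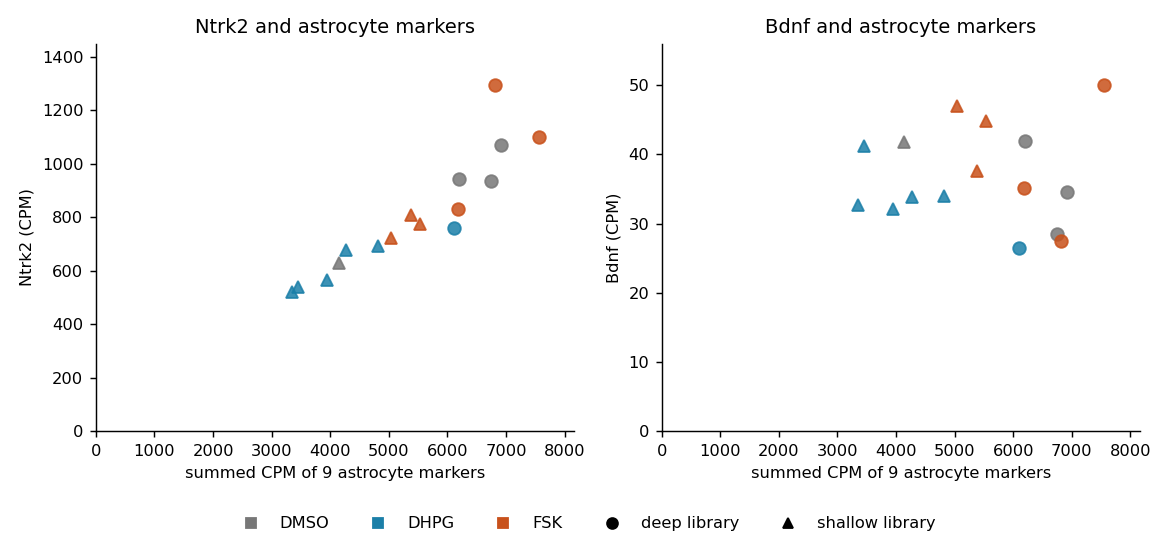
Level of Ntrk2 (left) and Bdnf (right) against the summed level of 9 astrocyte markers in each of the 16 libraries, all in CPM on linear axes from 0, with colour for treatment and circles for deep libraries. Ntrk2 lies between 521 and 1293 CPM and tends to rise with the marker sum, and Bdnf lies between 26.5 and 50.0 CPM. The marker sum is higher in every deep library than in any shallow one. FSK 5, with the highest sum, has Ntrk2 at 1098 CPM.

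Bdnf and the astrocyte sum had a Pearson r of 0.44 in the shallow and 0.42 in the deep set (exact permutation p = 0.24 and 0.33, adjusted 0.41 and 0.49), and of −0.06 over all 16 libraries, a description since the sets differ. The 120 relations were those of the 6 members with 10 cell marker lists in the 2 sets. By Pearson's r 6 of them had an adjusted p under 0.05, and by Spearman's coefficient 1 did, which was Ntrk2 with the astrocyte list in the shallow set. Besides the 3 of Ntrk2, the 6 held Ngfr with inhibitory neuron markers in the shallow set (r = 0.85, exact permutation p = 0.0023, adjusted 0.045) and 2 of Sort1 in the deep set. The relation of Ngfr had the other sign in the deep set (r = −0.42, exact permutation p = 0.33, adjusted 0.49). In the deep set Sort1 fell as the Schwann and olfactory ensheathing sum rose (r = −0.96, exact permutation p = 0.0012, adjusted 0.029). It also fell there as the oligodendrocyte lineage sum rose (r = −0.91, exact permutation p = 0.00099, adjusted 0.029). In the shallow set the first of these had the other sign (r = 0.71, exact permutation p = 0.038, adjusted 0.15). The second had an r of −0.53 there (exact permutation p = 0.15, adjusted 0.31). In the 7 deep libraries, FSK 4 and FSK 5 among them, Sort1 had an r of 0.95 with inhibitory neuron markers. It was −0.91, −0.91 and −0.90 for cycling cells, microglia, and choroid plexus and ependyma. These had an adjusted exact permutation p of 0.060 to 0.10. Without the 2 libraries farthest from the median sum, r was −0.99 for the oligodendrocyte lineage and −0.89 for the Schwann list. It was then 0.76 for inhibitory neurons and −0.83 for choroid plexus and ependyma, but −0.50 for cycling cells and −0.12 for microglia. The relation was not particular to any 1 list, and that with microglia was small without those libraries.

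Ntrk3 (chr7:78179986-78581034), the NT-3 receptor, also differed between the library sets, and did not pass between the drugs in edgeR. Its level in DMSO was 102, 159, 147 and 181 CPM. The lowest, median and highest levels were 90.5, 108 and 159.5 CPM in DHPG, and 94.2, 115 and 178 CPM in FSK. The single shallow DMSO library was the lowest of its group and the single deep DHPG library the highest of its own. Deep libraries exceeded shallow ones by 0.53 ± 0.12 on the log2 scale (edgeR adjusted p = 0.0032). The log2 fold change was −0.23 ± 0.20 in FSK against DMSO, −0.34 ± 0.20 in DHPG against DMSO and 0.11 ± 0.18 in FSK against DHPG, with edgeR adjusted p of 0.53, 0.42 and 0.64. With the set term these were −0.09, −0.03 and −0.06.

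Ngfr (chr11:95568818-95587698) was counted 25 to 135 times per library. Levels were 2.65, 2.58, 1.85 and 1.74 CPM in DMSO, and the lowest, median and highest were 1.10, 1.82 and 2.22 CPM in DHPG and 1.25, 1.66 and 2.40 CPM in FSK. In FSK 4 of the 6 libraries were below every DMSO library, and FSK 2 and FSK 4 were within the DMSO range. The log2 fold change was −0.39 ± 0.23 in FSK against DMSO (edgeR adjusted p = 0.35), −0.31 ± 0.24 in DHPG against DMSO (0.51) and −0.08 ± 0.21 in FSK against DHPG (0.78).

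Sort1 (chr3:108283974-108361519), which sorts BDNF into the regulated secretory route and is the p75 partner for proneurotrophins, had the smallest standard errors of the 6. Its DMSO levels were 395, 377, 411 and 397 CPM. In DHPG the lowest, median and highest were 372, 400.0 and 440.5 CPM, and in FSK 320.3, 377 and 431 CPM. FSK 4 and FSK 5 were the lowest of all 16 libraries and FSK 6 was the second highest. The 95% interval was 0.82-fold to 1.07-fold in FSK against DMSO and 0.89-fold to 1.17-fold in DHPG against DMSO, with log2 fold changes of −0.09 ± 0.09 and 0.03 ± 0.09 (edgeR adjusted p of 0.60 and 0.88). FSK against DHPG gave −0.12 ± 0.08 (edgeR adjusted p = 0.26).

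Of the 4 sortilin relatives, 2 were called between the drugs in edgeR, in a comparison that called 30.8% of all features. Sorcs1, a trafficking receptor of the sortilin family, rose in FSK against DHPG by 0.98 ± 0.22 on the log2 scale (edgeR adjusted p = 0.016), with all 6 FSK libraries above every DHPG library. FSK 4 and FSK 5 stood out at 36.4 and 34.7 CPM, against 16.6 to 18.8 CPM in the other FSK libraries and 7.67 to 14.9 CPM in DHPG. Sorcs2, which binds proBDNF with p75, fell by 0.49 on the log2 scale (SE 0.11, edgeR adjusted p = 0.016), with 5 of the 6 FSK libraries below every DHPG library. Both remained called with the set term, at 0.78 and −0.45, and without FSK 4 and FSK 5 when the set term was kept, at 0.56 and −0.36. They were not called without those libraries in the fit that lacked the term (edgeR adjusted p of 0.090 for each). Neither was called against DMSO in edgeR or DESeq2, and limma-voom called Sorcs1 in DHPG against DMSO (−0.55, adjusted p = 0.024). Sorl1 and Sorcs3 were not called in edgeR in any of the 3 comparisons, and Sorcs3 was at 8.1 and 7.7 CPM in FSK 4 and FSK 5 and at 25.7 to 28.2 CPM in the rest of FSK.

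The treatment effect itself was not shown to depend on the library set for any member. In a fit with a separate FSK effect for deep and shallow libraries, Bdnf had a log2 fold change over DMSO of 0.10 ± 0.19 in the deep set and 0.05 ± 0.28 in the shallow set, and the difference between them was 0.05 ± 0.34 (edgeR adjusted p = 0.99). The largest such difference among the 6 members was that of Ngfr, 0.52 ± 0.53 (edgeR adjusted p = 0.88). The shallow set has 1 DMSO library, so its spread is taken from the other groups.

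Genes around the receptors were read from lists of the pathway, counted in each direction. In FSK against DMSO edgeR called 1 of the 120 genes tested, beside 0.809% of all features, over the 7 lists on neurotrophins, receptors, proneurotrophin processing, Trk adaptors, p75 partners, Bdnf regulators and other neurotrophic factors: Islr2. DESeq2 called 12 of all 130 genes of the same lists, beside 6.88% of the features to which it gave an adjusted p. Islr2, a leucine-rich repeat protein that binds Trk receptors in developing axons, averaged 122 ± 14.7 CPM in DMSO (n = 4), 112 ± 23.7 CPM in DHPG (n = 6) and 66.7 ± 16.6 CPM in FSK (n = 6). It fell by 0.87 on the log2 scale (SE 0.18, edgeR adjusted p = 0.044), and all 6 FSK libraries lay below every DMSO library. It was not called without FSK 4 and FSK 5 (−0.71, adjusted p = 0.11), nor in 9 of the 16 fits that left out a single library, in which its adjusted p was 0.057 to 0.17.

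Of the Trk adaptors and brakes, 34 were tested, 1 fell (Islr2) and the list median was −0.12, against 0.02 over all features. No member of the other lists passed in edgeR, and the 2 with the smallest p in each had these values. An unadjusted p under 0.05 was found for 21.3% of all features, which is the background of the unadjusted counts. In proneurotrophin processing (16 tested, 3 with an unadjusted p under 0.05) Hap1, a cargo adaptor for BDNF transport, was at −0.39 and Furin, a proprotein convertase, at −0.49. Among p75 and sortilin partners (18 tested, 8 unadjusted) Rtn4r, the Nogo receptor, was at −0.84 (edgeR adjusted p = 0.070) and Arhgdia at −0.40. Among regulators of Bdnf transcription (24 tested, 8 unadjusted) Crtc1, a CREB coactivator, was at −0.59 and Usf2, a helix-loop-helix factor, at −0.41. Among other neurotrophic ligands and receptors (17 tested, 3 unadjusted) Hgf was at 1.19 and Igf1 at 0.85. Beside 6.88% of its features, DESeq2 called 4 of the p75 partners (1 higher and 3 lower), 5 of the regulators (2 and 3), 2 of the other ligands (1 and 1) and Islr2.

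In list counts added after the data were seen, with the library-set term (9.45% of all features called), 6 p75 partners passed in FSK against DMSO, 5 lower (Rtn4r, Lingo1, Arhgdia, Bex3 and Ndn) and 1 higher (Ripk2). In the same fit 7 regulators of Bdnf transcription passed, 3 of them higher and 4 lower, as did the Trk adaptors Frs3 and Islr2, both lower, and no neurotrophin or receptor did. Without FSK 4 and FSK 5 none of these lists had a call, with or without the term.

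DHPG against DMSO gave no call in any of these lists in edgeR, nor in DESeq2 outside the stimulation-responsive genes. The number of genes with an unadjusted p under 0.05 was 6 of 34 Trk adaptors, 5 of 24 regulators, 5 of 17 other ligands, 2 of 8 receptors and 1 each of 16 processing genes and 18 p75 partners, beside 12.4% of all features. The smallest p values were those of Frs2 (−0.55) and Sos1 (−0.81) among the adaptors, Crebbp (−0.61) and Ep300 (−0.99), the paired CREB-binding acetyltransferases, among the regulators, and Lifr (−0.38) and Cntf (−1.48) among the other ligands and receptors. Pcsk7 (0.24) and Pcsk5 (0.37), both convertases, led the processing list, and Rtn4r (−0.48) and Traf6 (−0.49), a p75 adaptor, the p75 partners. Each of these had an edgeR adjusted p of 0.40 or 0.41.

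**Figure D4:**
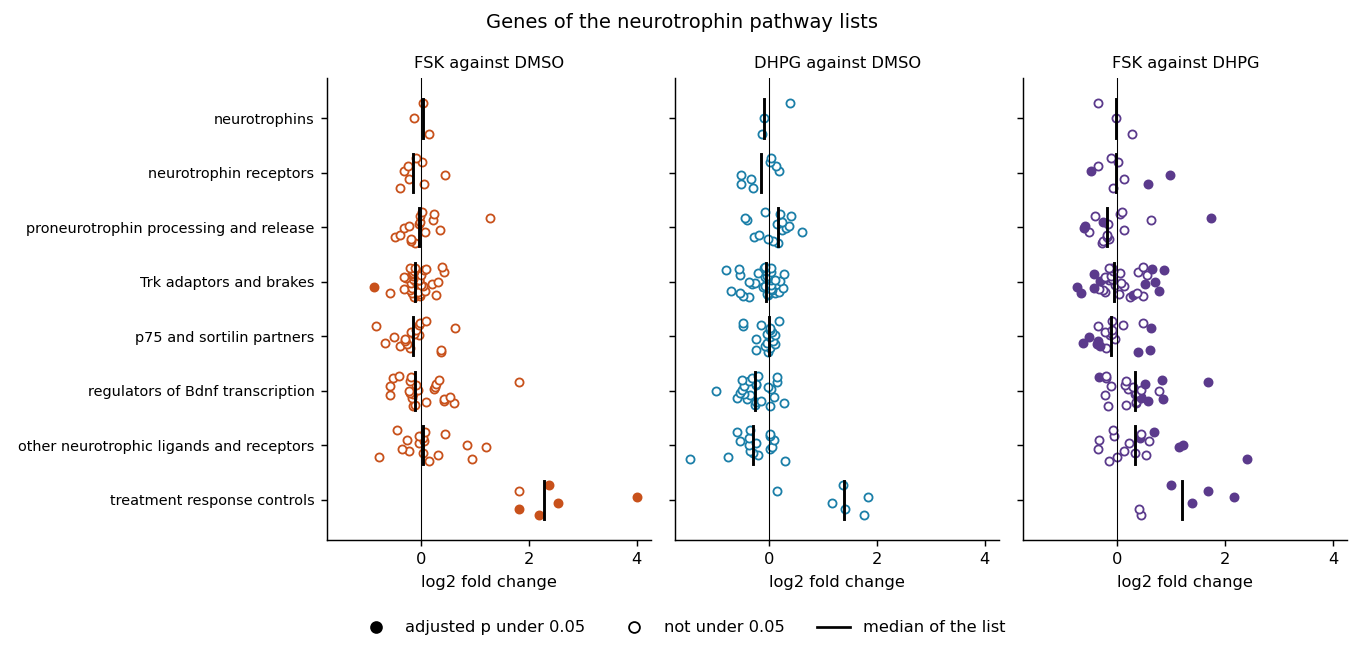
Log2 fold change of each tested gene of the 8 pathway lists in the 3 comparisons; filled points have an adjusted p under 0.05 in edgeR and the vertical bar is the list median. In FSK against DMSO 1 filled point lies outside the treatment response controls, none is filled in DHPG against DMSO, and filled points lie on both sides of 0 in FSK against DHPG.

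FSK against DHPG called genes in each list but the neurotrophins, beside 30.8% of all features. The 8 tested receptors gave 2 higher (Sorcs1 and Ntrk2) and 1 lower (Sorcs2). In proneurotrophin processing 1 of 16 was higher, Plau (the urokinase plasminogen activator, 1.74), and 3 were lower, Pcsk5 (−0.60), Pcsk2 (−0.62) and Pcsk7 (−0.27), all convertases. The list median was −0.20, against 0.03 over all features.

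Trk adaptors split almost evenly, with 6 of 34 higher and 5 lower in FSK. Pik3r1, the regulatory subunit of PI3 kinase, was higher by 0.70 ± 0.17, and Nedd4, a ubiquitin ligase that acts on Trk receptors, by 0.52 ± 0.14, both with all 6 FSK libraries above every DHPG library (edgeR adjusted p of 0.017 and 0.018). Islr2 was lower by 0.75 ± 0.17, and Plcg1, the phospholipase that docks to Trk receptors, by 0.32 ± 0.10, each with 4 of the 6 FSK libraries below every DHPG library.

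Among p75 partners 3 of 18 were higher and 5 lower. Adam17, a protease that sheds the p75 ectodomain, was higher by 0.61 ± 0.14 with all 6 FSK libraries above every DHPG library. Lingo1, the coreceptor of p75 and the Nogo receptor, was lower by 0.64 ± 0.17, Maged1 (NRAGE), which binds the p75 cytoplasmic domain, by 0.37 ± 0.10, and Ndn (necdin), another p75-binding protein, by 0.52 ± 0.15.

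Regulators of Bdnf transcription had a list median of 0.33, with 6 of 24 higher and 1 lower. Npas4, an activity-dependent factor that acts on the Bdnf promoters, was higher by 1.68 ± 0.45, Creb1 by 0.84 ± 0.18, Rest, a repressor, by 0.83 ± 0.23, and Carf, a calcium-response factor, by 0.57 ± 0.16 (edgeR adjusted p of 0.016 to 0.022). Of these Npas4 and Rest had all 6 FSK libraries above every DHPG library and Creb1 and Carf had 5. Among other neurotrophic ligands and receptors 5 of 17 were higher and none lower (median 0.33). Cntf was higher by 2.41 ± 0.56, Igf1 by 1.22 ± 0.28, Hgf by 1.15 ± 0.31 and Lifr by 0.41 ± 0.13, with Cntf and Igf1 higher in all 6 FSK libraries.

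These list counts depended on FSK 4 and FSK 5 in a comparison added after their values were seen. Without both, no gene of any of the pathway lists passed in edgeR (3 of 16723 features, or 0.0179%, did). When the set term was added as well, where 9.27% of features were called, 2 receptors, 4 Trk adaptors, 4 p75 partners, 3 regulators and 4 other ligands and receptors passed, and no processing gene did. Creb1 (0.69), Npas4 (1.82), Lingo1 (−0.45) and Islr2 (−0.59) were among them. The part of microglial RNA, or of RNA from other cell types, in these counts was not tested. With all libraries, 7 of the 10 microglial markers were called higher in FSK against DHPG, beside 30.8% of all features called. Their median was 2.71.

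The members did not vary as a group over the libraries. Pearson's r between pairs of them over the 16 libraries ran from −0.46 (Ntrk2 and Sort1) to 0.46 (Ntrk2 and Ntrk3), the second of which was −0.50 once each library set was centred on its own mean. All such values are descriptions over libraries that share depth, scaling and treatment.

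The genes most like each member were taken as the 3 with the highest Pearson r of log2 CPM over the 16 libraries, out of 13387 features of sufficient level. For Bdnf these were Slc4a7 (0.83), Ppp3ca (0.83) and Jakmip2 (0.82), and for Ntf3 2310015A10Rik (0.82), Nabp1 (0.80) and Mms22l (0.79). Ntrk2 was tracked closely by Naaa, Ahnak and Cfap57, each at 0.99 and each at 0.97 after centring within the set. For Ntrk3 they were Gm14296 (0.96), Setd5 (0.96) and D430041D05Rik (0.93), for Ngfr Gpn2 (0.82), Ccdc8 (0.80) and Tgfb1i1 (0.80), and for Sort1 Scn2b (0.96), Necap1 (0.95) and Hpcal4 (0.95). The best partner of Bdnf, Ntf3 and Ngfr was thus at 0.82 or 0.83, and that of the other 3 members at 0.96 or higher. After centring within the set, the partners of Ntrk3 were lower, at 0.88, 0.87 and 0.78. Those of Sort1 were then at 0.97, 0.95 and 0.95.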

How the data were processed

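Total RNA was profiled in 16 libraries of mouse hippocampal cultures: 4 DMSO, 6 DHPG and 6 FSK. Per the labels, RNA was extracted with Trizol and chloroform and libraries were made with the TruSeq Stranded Total RNA kit. Per the submitters' processing notes, Salmon, DESeq and GRCm38 were used, with versions not given in the sources used here. The deposited table holds estimated counts per gene symbol, of which 26.6% are not whole, and these were rounded before testing. Its 4 control columns carry the numbers of the DMSO samples and were taken as those. The authors' deposited comparison tables give a mean signal of scaled counts, log2 fold changes with standard errors, a test score, p-values and adjusted p-values, and only the log2 fold changes and adjusted p-values are quoted. They correlated with the log2 fold changes computed here at 0.98 (FSK) and 0.999 (DHPG).

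Counts were tested with edgeR 4.0.16 in R 4.3.3 by the quasi-likelihood F test with robust estimation, TMM scaling and filterByExpr at a minimum count of 10. All 3 groups shared 1 fit without a replicate block, and Benjamini-Hochberg adjustment covered all 17173 features, with a limit of 0.05. Levels are CPM with TMM factors, and log2 CPM has a prior count of 2. A library was deep if its total exceeded 30000000 counts. Alternatives were DESeq2 1.42.0, limma 3.58.1 voom, other scalings and filters, a replicate block, a library-set term, and libraries left out. The edgeR steps were tested on simulated data.

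The named genes are the 6 members, the neurotrophin and receptor lists, up to 4 called genes per other list and comparison by smallest p, or the 2 of smallest p where none passed, the 6 response genes and 3 likeness partners per member. Members and lists were chosen with earlier results of these data known. Genes other than those named by the rule appear where a count was resolved after its values were seen. A few genes under the rule are not reported here. Gene lengths were not used, so levels are not compared between genes. Sequences are from RefSeq, GRCm38.p6.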

Additional observations from a re-analysis of the deposited data

How the results depend on the processing

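The 18 differences of the members were recomputed under 30 settings each, which gave 537 values since Ntf3 failed the filter with a minimum count of 50. Of these, 498 kept direction and side of the limit, 25 reversed, 9 lost and 5 gained a call. Where no value shows why, the cause was not tested.

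In FSK against DMSO the 139 calls became 62 with library totals, 1234 with DESeq2, 6051 with limma-voom, 66 without a filter, 83 with only the 2 groups, 531 with the replicate block, 1622 with the library-set term, 11 in shallow libraries, 38 without FSK 4 and FSK 5, and 56 without them and with the set term. Leaving out 1 library gave 12 to 427. In DHPG against DMSO the 1 call became 9 with DESeq2 and 5960 with limma-voom. It became 0 in edgeR with a minimum count of 50, with only the 2 groups, with the block, with the set term, in deep or shallow libraries, and without FSK 4 and FSK 5 with or without the set term, where 387 to 3425 features had an unadjusted p under 0.05. Leaving out 1 library gave 0 to 5. In FSK against DHPG the 5283 calls became 2510 with library totals, 2905 without a filter, 0 in deep libraries (edgeR, 4587 at an unadjusted p under 0.05), 9 in shallow libraries, 3 without FSK 4 and FSK 5 and 1551 with the set term as well. Leaving out 1 library gave 1804 to 5798.

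Limma-voom turned Ntf3 to −0.13 and Ntrk2 to −0.26 in FSK against DMSO, and Bdnf to 0.064 and Sort1 to −0.0059 in DHPG against DMSO. It called Bdnf (0.40) and Ntrk3 (−0.46) in FSK against DMSO, Ntrk2 (−0.63) and Ntrk3 (−0.49) in DHPG against DMSO, and Bdnf (0.34) in FSK against DHPG. Ntf3 in FSK against DMSO was −0.049 with the replicate block, −0.094 in shallow libraries, −0.18 without FSK 4 and FSK 5 and −0.23 with the set term too, and −0.058 to 0.15 with 1 library left out. Ntrk2 in FSK against DMSO was −0.19 without FSK 4 and FSK 5, and −0.096 to 0.15 with 1 library left out. Ntrk3 was 0.067 in shallow libraries and 0.076 without FSK 4 and FSK 5 with the set term in FSK against DMSO, 0.074 and 0.047 there in DHPG against DMSO, and in FSK against DHPG −0.061 with the set term, −0.17 in deep and −0.0069 in shallow libraries, and −0.013 to 0.23 with 1 library left out. Sort1 in FSK against DMSO was 0.048 without FSK 4 and FSK 5 with the set term, and Ntf3 in FSK against DHPG was 0.086 in deep libraries. Ntrk2 in FSK against DHPG kept its direction in all 30 settings and lost its call in deep (0.47) and shallow (0.36) libraries, without FSK 4 and FSK 5 (0.33, and 0.31 with the set term), with the block (0.54, adjusted p = 0.052), and without each of 4 single libraries. With 1 library left out it was 0.44 to 0.62.

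The replicate numbers were tested as pairs, by deviations from the group mean. Of 14 pairs of same-numbered libraries, 3 had deviations that correlated above 0.1 (range −0.41 to 0.39). Of 16 libraries, 1 correlated best with its own number. The deviations were not centred within the library set, and several numbers join a deep with a shallow library. The test therefore cannot decide whether the numbers pair the libraries. The block changed the call of Ntrk2 and of no other member.

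Ntf3, Ngfr and Ntf5 had low counts in every library. Ntrk2 and Ntrk3 differed between the library sets, and deep libraries were unevenly spread over treatments. The part of either in the differences between treatments was not tested.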
